A study of Mus musculus with 3 samples.

Results

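Transcripts of the dystrophin and dystroglycan complex were examined in mouse muscle stem cells (MuSC, satellite cells) that were fresh or had been cultured without or with Oncostatin M (OSM), a cytokine of the IL-6 family. The members were the 8 listed genes Dmd, Utrn, Dag1, Sgca, Sgcb, Sgcd, Sgce and Sspn, out of 18193 genes that the array annotation ties to a probe set naming no other gene. They were taken by name and not by a rule on their levels, though earlier results of these data were known when they were chosen. Together they had 20 of 45037 probe sets, each gene was read from its brightest probe set (by mean over the arrays), and the remaining 12 probe sets served as a check. A signal of 40, which was the median over all probe sets and arrays, served as the floor, and all 8 lay above it on at least 1 array, and 7 did so on all 3 arrays. The exception was Sgcd.

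The complex links the actin cytoskeleton of a muscle cell to laminin in the basement membrane. Dystrophin binds actin inside the cell and β-dystroglycan at the membrane, α-dystroglycan binds laminin outside, and the sarcoglycans and sarcospan form a membrane subcomplex that holds the assembly together. Loss of dystrophin or of α-, β- or δ-sarcoglycan causes muscular dystrophy. Satellite cells lie between the fiber membrane and the basement membrane, and dystrophin is known to act in their polarity and asymmetric division.

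Wild-type C57BL/6 mice, 8 weeks old and female per the study's methods, were the source of the cells, which were sorted by FACS for CD34 and α7 integrin, after cells with CD45, CD11b, CD31 or Sca1 had been removed. Fresh MuSC were not cultured, MuSC −OSM were kept for 3 days with 10% FBS (untreated MuSC), and MuSC +OSM were kept for 3 days with 10% FBS and 100 ng/mL OSM (OSM-treated MuSC). Each condition had 1 Affymetrix MOE_430_2 array, and the number of mice behind each RNA is not known here. With 1 array per condition no test was possible and no difference has a replicate check, so folds are given as ratios between these 3 arrays. The only gauge of error was the disagreement between probe sets of the same gene. For OSM-treated over untreated MuSC the brightest and second probe sets of 4331 genes differed by a median of 0.32 in log2 ratio (1.25-fold), and for 90% of genes by less than 0.86 (1.82-fold). For fresh over untreated MuSC these values were 0.46 (1.38-fold) and 1.37 (2.59-fold). They do not cover the spread between cultures or mice.

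Some differences between the arrays run alongside every comparison with fresh MuSC. For the β-actin controls of the array the 3′ to 5′ ratio was 2.35 in fresh, 1.40 in untreated and 1.41 in OSM-treated MuSC, and for those of Gapdh it was 1.36, 1.14 and 0.905. The 10 listed satellite cell markers had a summed signal of 38258 in fresh, 8493 in untreated and 10349 in OSM-treated MuSC. All 10 lay above the floor in fresh MuSC, whereas Calcr and Cd34 lay under it on both culture arrays. In fresh over untreated MuSC 7 of the 10 were at least 2-fold higher, such as Pax7 (4006, 282 and 431). The 2 that were at least 2-fold lower were Myod1 (936, 3820 and 4148) and Itga7 (499, 1808 and 1238). Fibroblast markers had a summed signal of 59720 in fresh, 5342 in untreated and 12727 in OSM-treated MuSC, with 11, 6 and 9 of 11 above the floor. Schwann cell markers summed to 17292, 1806 and 3272, with 8, 5 and 6 of 8 above the floor. Drp2, a relative of dystrophin described further below, had 2838, 1101 and 2335 and made up most of both culture sums. Endothelial markers summed to 1471, 312 and 233 (6, 2 and 1 of 12 above the floor) and leukocyte markers to 1516, 350 and 298 (4, 4 and 2 of 11), with Pecam1 and Ptprc under the floor on every array, but Tek (791, 42 and 25), Cdh5 (268, 6 and 22) and Lyz2 (1204, 13 and 13) well above it in fresh MuSC. Lyz2 made up most of the leukocyte sum in fresh MuSC, and Csf1r (58, 62 and 149) was highest with OSM. Smooth muscle and pericyte markers summed to 15438, 28275 and 24015, with 11, 7 and 8 of 12 above the floor and Myh11 under it on both culture arrays. That sum was carried in culture by Acta2 (6543, 19053 and 13114) and by Des (744, 6183 and 7248), which is also on the differentiation list, while 6 of 11 measured genes of the list stood at least 2-fold above untreated MuSC in fresh MuSC, such as Rgs5 (1687, 35 and 59) and Notch3 (2947, 319 and 263). Genes of myogenic differentiation ran the other way, with 22035, 267642 and 148958 over 24 genes. The part of these in the results below was not tested, and in such bulk RNA fewer cells of a type and less RNA per cell cannot be told apart.

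Without replicates a gene was counted as changed where its signals differed by at least 2-fold after lower signals had been raised to the floor. In fresh over untreated MuSC, 3 of the 8 genes were at least 2-fold higher (Dmd, Dag1 and Sgce) and 2 were at least 2-fold lower (Sgca and Sgcb), where 20.4% of all 12755 measured genes were higher and 15.0% were lower. In OSM-treated over untreated MuSC, 1 of the 8 was at least 2-fold higher (Sgce, exactly at the threshold) and 0 were lower, against 6.07% and 4.39% of 11271 genes. In OSM-treated MuSC over fresh MuSC, 2 of 7 measured members were higher (Sgca and Sgcb) and 3 were lower (Dmd, Dag1 and Sgce), against 13.8% and 17.2% of 12483 genes. The members' median log2 ratios were 0.40, -0.29 and -0.80 in these comparisons, and those of all measured genes were 0.14, -0.01 and -0.14, but with arrays centred on the median the members' values became -0.15, -0.17 and -0.03. That scaling moves every ratio of fresh to untreated MuSC downward, and turned those of Utrn (to -0.28) and Sspn (to -0.03), while Dmd (0.67) and Dag1 (0.70) stayed higher but under 2-fold, which left Sgce as the 1 member at least 2-fold higher, and Sgca and Sgcb stayed at least 2-fold lower. Of all 12211 genes measured after centring, 1464 were at least 2-fold higher and 3455 lower. Every pair of these comparisons shares an array, so their ratios are not independent.

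**Figure D1:**
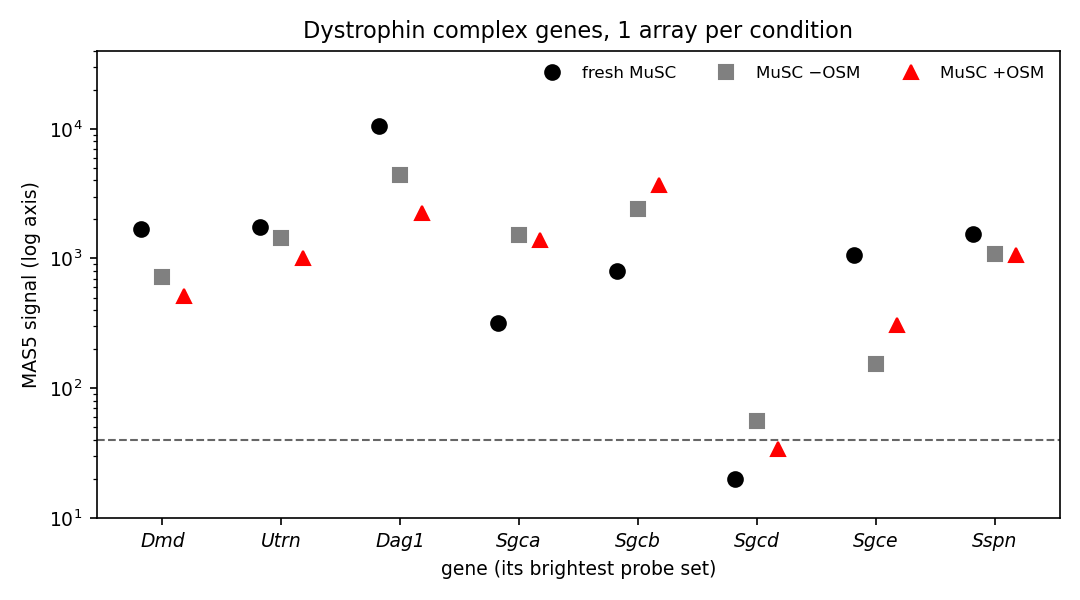
Signals (MAS5, log-scaled axis) of the 8 genes in fresh MuSC (black circles), MuSC −OSM (gray squares) and MuSC +OSM (red triangles), 1 array each, with a dashed line at the floor of 40. Dmd, Dag1 and Sgce are highest in fresh MuSC, Sgca and Sgcb are lowest there, and Sgcd crosses the floor in MuSC −OSM alone.

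Dystrophin and its autosomal relative utrophin, which can take its place in the complex, were both highest in fresh MuSC and lowest in OSM-treated MuSC as deposited, but by unlike amounts, and with arrays centred on the median Utrn was no longer highest in fresh MuSC. Dmd (GRCm38.p6 chrX:82814664-85205050) had a signal of 1675 in fresh, 715 in untreated and 516 in OSM-treated MuSC. Fresh MuSC thus stood 2.34-fold above untreated MuSC and 3.25-fold above OSM-treated MuSC, whereas the cultures differed by 1.39-fold. A second Dmd probe set gave 1371, 491 and 465 in the same order, which put fresh MuSC 2.79-fold above untreated MuSC and left the cultures 1.06-fold apart. The third, with 80, 36 and 49, ran opposite between the cultures, and the last lay under the floor throughout. The gap between fresh and cultured cells was therefore seen by all 3 measured probe sets of Dmd, while the one between the cultures was not. Dmd is known to have several promoters whose products share the 3′ end of the gene, and these signals do not tell them apart.

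Utrn (chr10:12382187-12869888) had a signal of 1756 in fresh, 1446 in untreated and 1011 in OSM-treated MuSC. The fresh and untreated arrays differed by 1.21-fold, within the usual disagreement of probe sets, and OSM-treated MuSC lay 1.43-fold under untreated MuSC. Its other probe sets were dim, at 87, 54 and 48 and at 58, 56 and 30, and both ran the same way in each comparison. On the log2 scale the fresh to untreated MuSC ratio was 1.23 for Dmd and 0.28 for Utrn, a difference of 0.95 (1.93-fold). With OSM over without, the ratios were -0.47 and -0.52, which differ by 0.05.

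Dag1, which encodes the precursor of both dystroglycan subunits, followed Dmd in direction and was the member farthest below untreated MuSC in OSM-treated MuSC. Dag1 (chr9:108204861-108263977) had a signal of 10524 in fresh, 4400 in untreated and 2243 in OSM-treated MuSC. Each step down was close to 2-fold, at 2.39-fold from fresh MuSC to untreated MuSC and 1.96-fold from there to OSM-treated MuSC, just short of the threshold. The other 3 probe sets gave 6032, 751 and 516, then 2156, 705 and 456, then 1837, 656 and 439, always in that order of arrays. All 4 probe sets thus ranked fresh MuSC first and OSM-treated MuSC last. Their folds between fresh MuSC and untreated MuSC ran from 2.39 to 8.03, the largest from a probe set whose suffix marks probes that can match other sequences, and their folds between the cultures ran from 1.46 to 1.96. Only 4.60% of measured genes had a lower ratio of OSM-treated MuSC to untreated MuSC than Dag1.

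**Figure D2:**
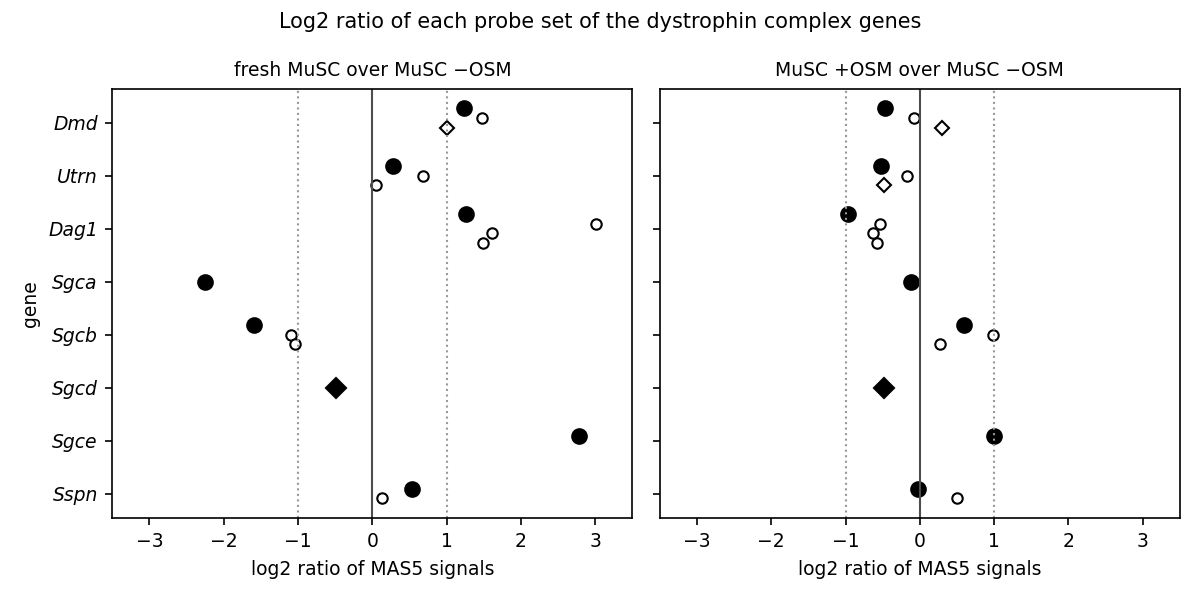
Log2 ratio of MAS5 signals for each measured probe set of the 8 genes, with the brightest probe set of a gene filled and the others open. Diamonds mark ratios that are bounds, since the lower signal was under the floor, and dotted lines mark 2-fold. On the left all 4 Dag1 probe sets lie above 1 and all 3 of Sgcb below -1, and on the right all Dag1 probe sets lie between -0.97 and -0.54.

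The sarcoglycans split into opposite directions. Sgca, the α-sarcoglycan of striated muscle, and Sgcb, the β-sarcoglycan found in muscle and elsewhere, were both higher in culture, whereas Sgce, the ε-sarcoglycan that is related in sequence to Sgca and widely expressed, was lower in culture. The RefSeq windows of the 250 bases before a start are given for Sgca and Sgcb, which differed in the same direction, and for Dag1, which went the other way, and the window of Sspn is given since it alone held a motif of the kind STAT factors bind. Each is written 5′ to 3′ on the gene's strand in GRCm38.p6, with the E-box motif CANNTG and the motif TTCNNNGAA in capitals. They lie at chr11:94976328-94976577 (minus strand), chr5:73647738-73647987 (minus), chr9:108263959-108264208 (minus) and chr6:145933872-145934121 (plus), in the order printed.
Sgca: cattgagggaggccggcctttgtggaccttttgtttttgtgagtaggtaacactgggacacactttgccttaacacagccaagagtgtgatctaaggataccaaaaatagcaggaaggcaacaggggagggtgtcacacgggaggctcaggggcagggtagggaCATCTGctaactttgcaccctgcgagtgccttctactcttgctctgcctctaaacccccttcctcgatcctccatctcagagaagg
Sgcb: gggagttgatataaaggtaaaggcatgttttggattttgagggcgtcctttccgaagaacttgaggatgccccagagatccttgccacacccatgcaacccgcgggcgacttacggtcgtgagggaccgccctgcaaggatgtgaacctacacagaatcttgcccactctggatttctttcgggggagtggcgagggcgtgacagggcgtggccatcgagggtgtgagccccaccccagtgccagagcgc
Dag1: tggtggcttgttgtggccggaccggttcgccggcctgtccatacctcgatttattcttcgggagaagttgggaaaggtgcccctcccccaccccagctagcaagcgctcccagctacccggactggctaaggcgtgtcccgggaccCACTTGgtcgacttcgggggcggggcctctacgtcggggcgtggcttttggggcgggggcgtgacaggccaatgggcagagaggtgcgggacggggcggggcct
Sspn: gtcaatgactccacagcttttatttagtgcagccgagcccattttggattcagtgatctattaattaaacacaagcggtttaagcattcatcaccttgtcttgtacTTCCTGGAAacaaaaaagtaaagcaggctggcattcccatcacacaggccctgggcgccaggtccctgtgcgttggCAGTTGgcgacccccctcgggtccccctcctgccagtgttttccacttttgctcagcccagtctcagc

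RefSeq windows were matched for 7 of the 8 members, as 10 windows that include overlapping ones. Both motifs read the same on either strand, so each match counts for both. CANNTG, the core that MyoD and myogenin bind, occurred in windows of 6 of the 7 genes and in 7 of the 10 windows, against 66.2% of all 32851 windows. TTCNNNGAA occurred in 1 of the 10, a window of Sspn, against 7.02% of all windows. CAGCTG, the E-box form that myogenic factors prefer, occurred in 0 of the 10 (13.0% of all windows), and TTCCGG or its reverse complement also in 0 of the 10 (12.0%). These are matches of letters in short windows and do not show that a factor binds there.

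Sgca (chr11:94962777-94976327) had a signal of 316 in fresh, 1509 in untreated and 1396 in OSM-treated MuSC. Both cultures thus stood well above fresh MuSC, by 4.78-fold without and 4.42-fold with OSM, and differed from each other by 1.08-fold, a difference that changes sign under centring (log2 ratio 0.01). Only 3.64% of measured genes had a lower ratio of fresh MuSC to untreated MuSC. It has 1 probe set, so these values have no second reading. Among genes of myogenic differentiation 23 of 24 also lay at least 2-fold below untreated MuSC in fresh MuSC, their median log2 ratio being -4.06, whereas that of Sgca was -2.26. In OSM-treated over untreated MuSC 9 of these 24 genes were at least 2-fold lower, with a median of -0.83, and Sgca had -0.11.

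Sgcb (chr5:73632749-73647737) had its highest signal with OSM and its lowest in fresh MuSC, also at its other probe sets. Its signal was 805 in fresh, 2425 in untreated and 3668 in OSM-treated MuSC. untreated MuSC lay 3.01-fold above fresh MuSC, and OSM-treated MuSC lay 1.51-fold above untreated MuSC and 4.56-fold above fresh MuSC. The other probe sets gave 293, 624 and 1233, and 300, 616 and 741, in the same order. The order of the arrays was thus the same at all 3. Their folds between the cultures ran from 1.20 to 1.98, so that none reached 2-fold, and those between fresh MuSC and untreated MuSC ran from 2.05 to 3.01.

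Sgce (chr6:4674350-4747204) had a signal of 1064 in fresh, 154 in untreated and 308 in OSM-treated MuSC. Fresh MuSC stood 6.91-fold above untreated MuSC, the largest ratio of any member in this comparison, and 3.45-fold above OSM-treated MuSC. OSM-treated MuSC was 2.00-fold above untreated MuSC, and this count at the threshold was lost after quantile normalization and with a higher floor. The second Sgce probe set lay under the floor on all arrays, at 24, 2 and 17, so these values too have no second reading. In the ratio of fresh MuSC to untreated MuSC 96.6% of measured genes lay below Sgce. On the log2 scale its ratio was 2.79 and that of Sgca was -2.26, so that the change of Sgce relative to Sgca came to 33.0-fold between these arrays. Between the cultures the corresponding difference was 2.16-fold. Fibroblast markers went in the same directions as Sgce. In fresh over untreated MuSC 10 of 11 were at least 2-fold higher, and with OSM 4 of 9. Satellite cell markers had median log2 ratios of 3.71 and 0.45 in these comparisons, with 7 of 10 higher and 2 lower in fresh MuSC. With OSM 1 of 8 of them was higher and 0 were lower. Schwann cell markers had medians of 3.18 and 0.57, with 8 of 8 and 1 of 7 higher. The part of any of these in the level of Sgce was not tested.

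Sgcd (chr11:46971077-47989451), which encodes δ-sarcoglycan, was near the limit of the arrays. Its single probe set had a signal of 20 in fresh, 56 in untreated and 34 in OSM-treated MuSC, above the floor in untreated MuSC alone. The signal of untreated MuSC was thus at least 1.40-fold above both other arrays, and no ratio was taken between those.

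Sspn (chr6:145931873-145965225), the tetraspan protein sarcospan, differed little between the cultures at its brightest probe set. Its signal was 1556 in fresh, 1078 in untreated and 1064 in OSM-treated MuSC. Fresh MuSC lay 1.44-fold above untreated MuSC, and the cultures differed by 1.01-fold, though centring on the median puts fresh MuSC lowest. A second probe set gave 166, 152 and 216, with OSM-treated MuSC highest, so the order of the cultures was not settled for Sspn.

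**Figure D3:**
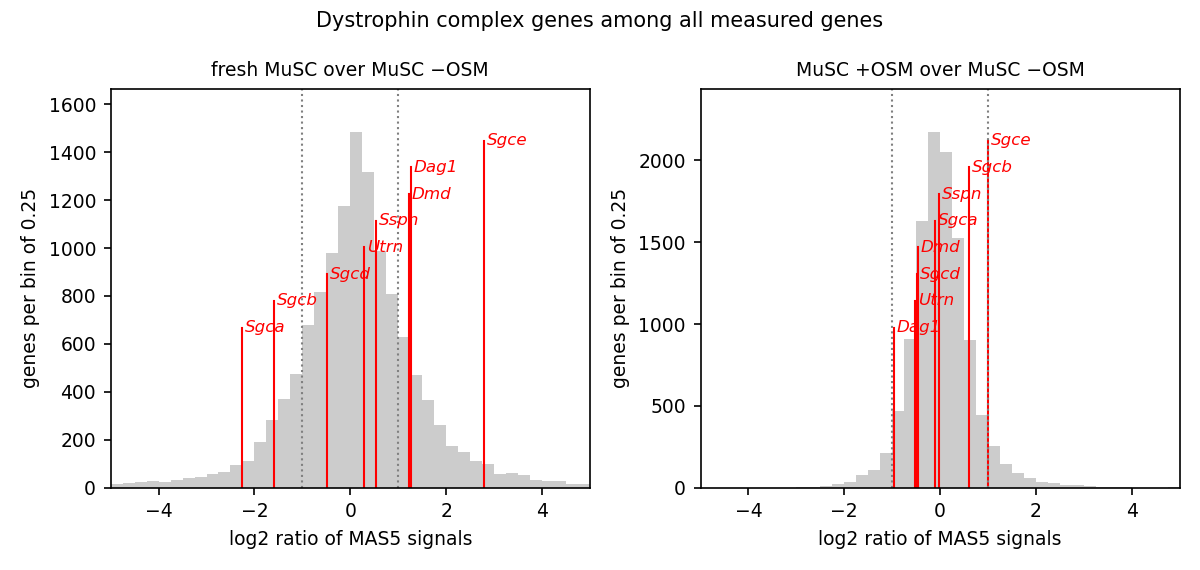
Number of measured genes in bins of 0.25 in log2 ratio (gray bars, axis cut at -5 and 5), with the brightest probe set of each member as a red line whose height has no meaning, and dotted lines at 2-fold. On the left Sgca and Sgcb lie in the lower tail and Sgce in the upper, and on the right all members lie between -0.97 and 1.

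Across all members, the other probe sets went the same way as the brightest in 10 of 10 measured cases for fresh over untreated MuSC, in 8 of 10 for OSM-treated over untreated MuSC and in 9 of 10 for OSM-treated MuSC over fresh MuSC. The exceptions were the third Dmd and the second Sspn probe set.

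The pattern over the 3 arrays was compared with that of 9424 other genes above the floor on all of them, as the distance between log2 signals after each gene's mean was subtracted. This was done for Sgce and Dag1, which had the largest ratios between the cultures. Nearest to Sgce were Rpl12 (1238 in fresh, 183 in untreated and 360 in OSM-treated MuSC, distance 0.02), Mrc2 (791, 113 and 232, distance 0.03) and Cd200 (2361, 359 and 688, distance 0.05). Nearest to Dag1 were Fam107b (262, 107 and 52, distance 0.07), Fibin (452, 212 and 102, distance 0.12) and Cobll1 (651, 243 and 126, distance 0.12). With 3 values a gene such likeness is common, and 41 and 20 genes, respectively, lay within a distance of 0.25.

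Of 19 further subunits and partners of the complex, 16 had a probe set, and they too ran in both directions. In fresh over untreated MuSC, 5 of 15 measured genes were at least 2-fold higher and 6 lay at least that far below, and the median log2 ratio was 0.20 (-1.57 with arrays centred on the median and -1.07 after quantile normalization, with 12 genes measured). With OSM 0 of 10 were higher and 1 was lower, and the median was -0.20. The lower gene was Dtna, which encodes α-dystrobrevin, a relative of dystrophin in the complex, with signals of 47 in fresh, 821 in untreated and 368 in OSM-treated MuSC. Cav3, the caveolin of muscle, had 150, 4273 and 4322, so that untreated MuSC stood 28.5-fold above fresh MuSC, and the cultures differed by 1.01-fold. The intermediate filament protein gene Sync, whose product binds dystrobrevin, had 106, 1189 and 1206. Dysf, a membrane repair protein gene, had 17, 454 and 239 and was at least 11.3-fold below untreated MuSC in fresh MuSC. These 4 genes were all among the 6 lower ones, and Sgca and Sgcb shared their direction between fresh MuSC and untreated MuSC. The 5 higher ones included Ank3 (2607, 398 and 527) and Ank2 (658, 160 and 251), named after their values were seen. Dmd, Dag1 and Sgce shared the direction of those.

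Genes of dystroglycan glycosylation, which build the sugar chain that laminin binds, mostly lay within 2-fold, as did most measured genes. Of 18 listed genes 14 had a probe set, and in OSM-treated over untreated MuSC 0 of 13 measured genes differed by 2-fold in either direction and the median was 0.10. Of all 11271 genes measured there, 10092 lay within 2-fold. In fresh over untreated MuSC 1 of 13 was lower and 0 were higher, with a median of -0.11, where 8232 of all 12755 genes lay within 2-fold. After centring on the median 2 were lower with a median of -0.57, against 3455 of 12211 genes. The gene lower as deposited was Gmppb, which makes the mannose donor, with signals of 51 in fresh, 175 in untreated and 187 in OSM-treated MuSC.

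Among matrix genes, laminins, other dystroglycan ligands and their partners, 7 of 9 measured stood at least 2-fold above untreated MuSC in fresh MuSC and 0 stood below, and their median was 1.85. With OSM 4 of 9 stood at least 2-fold above the level without it and 0 stood below, and the median was 0.94. Fibroblast markers went the same way in that comparison, with 4 of 9 at least 2-fold higher, a median of 0.78, Dcn at 32 without and 373 with OSM and Col1a1 at 53 and 164, and their part in the matrix genes was not tested. Col6a2, a collagen VI chain, had signals of 1716 in fresh, 161 in untreated and 420 in OSM-treated MuSC. Its partner chain Col6a1 had 1838, 152 and 291, but Col6a3 had 1085, 265 and 173, with OSM-treated MuSC lowest. Lama4, a laminin chain of vessels and nerve, had 323, 6 and 92 and was at least 2.30-fold higher with OSM. Lama5 (114, 27 and 215) and Bgn (3458, 3311 and 7946), named after their values were seen, were also among the genes higher with OSM. Unlike Lama4, Col6a1 and Col6a2, both were highest in OSM-treated MuSC and not in fresh MuSC. Lama2, the main laminin chain of muscle basement membrane and named after its values were seen, had 2870, 798 and 547. Dag1, Dmd and Col6a3 had the same order of arrays. Few orders are possible with 1 array per condition, and the share of all genes with this one was not counted.

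Other laminin receptors ran in both directions. Of 6 genes, fresh MuSC had 1 at least 2-fold above untreated MuSC and 2 below, against 20.4% and 15.0% of all measured genes. The median was -0.81. With arrays centred on the median 4 lay below and the median was -1.36, where 3455 of 12211 genes were lower. With OSM 0 of 5 measured were higher and 0 were lower, against 6.07% and 4.39% of all measured genes, and the median was -0.22. Itga7, the integrin chain used for sorting, had signals of 499 in fresh, 1808 in untreated and 1238 in OSM-treated MuSC. Its partner Itgb1 had 1820, 3130 and 5730, so that it was lowest in fresh MuSC like Sgcb and highest with OSM. Itga6 had 1318, 2791 and 1799, and Itgb4 had 243, 33 and 42. In fresh over untreated MuSC, Itga7 was thus 3.62-fold lower and Dag1 2.39-fold higher.

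**Figure D4:**
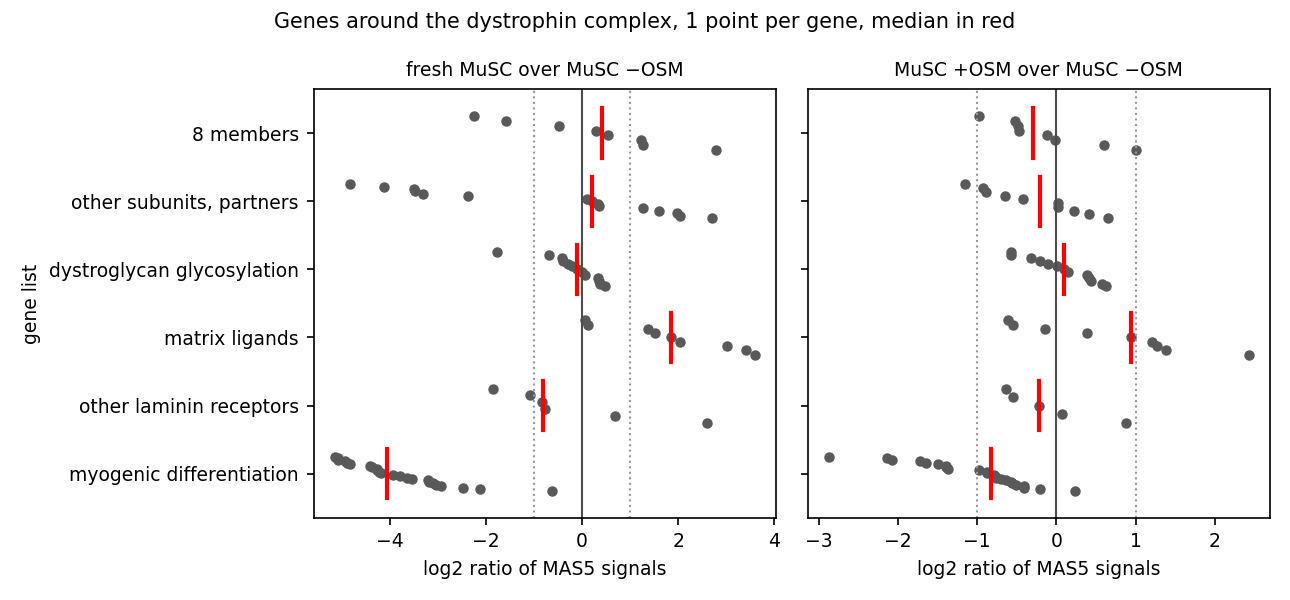
Log2 ratio of MAS5 signals for each measured gene of 6 lists, with the median of each list as a red bar and dotted lines at 2-fold. The members spread to both sides on the left, the glycosylation genes lie within 2-fold in both panels except Gmppb on the left, and the medians of the matrix ligands are 1.85 and 0.94.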

How the data were processed

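RNA of MuSC was hybridized to 3 Affymetrix MOE_430_2 arrays, 1 per condition, after amplification with 3′ IVT Express reagents. The authors processed the scans with MAS5 (version: not given in the sources used here) and deposited signal intensity on a linear scale in whole numbers, scaled per array (trimmed mean 198 to 199 on each). Conditions were taken from the sample labels. The 64 control probe sets were left out, which left 45037. The annotation used here names 1 gene for 34945 of these, several for 932 and lists none for 9160, and all 20 probe sets of the members matched the RefSeq gene table by identifier with 0 changed symbols. Genes were read from the probe set of highest mean signal. Ratios were taken after raising signals to a floor of 40, for genes above it on at least 1 of the arrays compared, in Python 3.11.15 with numpy 2.4.6 and pandas 2.3.3. A gene counted as changed at 2-fold. The steps were tested on simulated data. Member genes and lists were chosen with earlier results of these data known. All members are named, and of other lists up to 4 genes with the largest ratios past 2-fold and a signal of at least 100 on 1 array, with exceptions marked. Promoter windows, symbols and coordinates are those of RefSeq on GRCm38.p6. The methods give 15% FBS with FGF for standard culture, and the labels 10% FBS. Other scalings, floors, probe sets and fold thresholds were tried.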

Additional observations from a re-analysis of the deposited data

How the results depend on the processing

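Over 5 other settings of scaling, floor and probe set, the 11 member ratios past 2-fold had 55 values. Of these, 51 stayed past 2-fold in the same direction, 4 lost it and 0 reversed. Many of the 55 could not change, so this tally overstates how firm the ratios are. Removing the floor left all 11 as they were, since their signals lay above it. The floor at the 75th percentile altered only ratios of Sgce. Taking the mean over probe sets could not alter Sgca or Sgce, each with 1 measured probe set. Among ratios within 2-fold, centring turned the sign for Utrn and Sspn in fresh over untreated MuSC, for Sgca and Sspn in OSM-treated over untreated MuSC, and for Sspn in OSM-treated over fresh MuSC, and taking the mean over probe sets turned Sspn between the cultures. No paired analysis was possible because each condition has 1 array. With arrays centred on the median, Dmd and Dag1 in fresh MuSC over untreated MuSC came to log2 ratios of 0.67 and 0.70, which left 1 member of 8 at least 2-fold higher, against 1464 of 12211 measured genes. In OSM-treated MuSC over untreated MuSC, Sgce came to 0.87 under quantile normalization and 0.75 once the floor was set to the 75th percentile, which left 0 members higher under either. Among all measured genes 609 of 11839 and 300 of 7014, respectively, were higher under these settings. With a 1.5-fold threshold 2 members were higher and 1 lower in OSM-treated over untreated MuSC, and with a 3-fold threshold 0 were higher there and 1 in fresh MuSC over untreated MuSC. Shares of all genes were not taken at 1.5-fold and 3-fold, so these counts have no background to be set against. Gains were Utrn in OSM-treated MuSC over fresh MuSC after quantile normalization (-1.02) and Sgcd in fresh MuSC over untreated MuSC with no floor (-1.49).

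Scaling moved the median log2 ratio of all genes. For fresh MuSC over untreated MuSC the median was 0.14 as deposited, -0.37 once centred and -0.10 under quantile normalization, and the share of higher among changed genes was 57.6%, 29.8% and 46.6%. For OSM-treated MuSC over untreated MuSC the shares were 58.0%, 68.3% and 54.2%, and for OSM-treated MuSC over fresh MuSC 44.5%, 79.2% and 54.8%. With 1 array per condition no replicate could be left out, and Sgcd, under the floor on 2 arrays, is limited by signal over background.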

Other observations

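Other relatives of dystrophin, named here after their values were seen, ran in opposite directions. Drp2, dystrophin-related protein 2, known from myelinating Schwann cells, had signals of 2838 in fresh, 1101 in untreated and 2335 in OSM-treated MuSC, so that OSM-treated MuSC was 2.12-fold above untreated MuSC. A second Drp2 probe set gave 4630, 275 and 784, or 2.85-fold between the cultures, and the remaining one was above the floor in fresh MuSC alone, at 82. Drp2 is also on the list of Schwann cell markers and was 1 of the 7 measured there. Among the others, Cnp was 1.64-fold higher with OSM, with 795, 266 and 437, Sox10 was at least 1.57-fold higher, with 221, 11 and 63, and Mal was at least 1.80-fold lower, with 737, 72 and 36. Dtna was lower with OSM at all 6 measured probe sets, by 1.25-fold to 2.78-fold, and lower in fresh than in untreated MuSC at those 6. Dtnb, which encodes β-dystrobrevin, had 122, 26 and 26, and its other probe set had 63, 44 and 25, with fresh 1.43-fold above untreated MuSC. Dmd and Utrn, for comparison, were lower with OSM by 1.39-fold and 1.43-fold.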
